A study of Macaca mulatta with 24 samples.

Results

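Dopamine acts on postsynaptic cells through G protein-coupled receptors of a D1-like class (DRD1 and DRD5), which raise cyclic AMP, and a D2-like class (DRD2, DRD3 and DRD4), which lower it. In the striatum, which includes the nucleus accumbens core (NAcc), most neurons are medium spiny neurons, and DRD1 marks those of the direct output pathway while DRD2 marks those of the indirect pathway. Released dopamine is cleared by uptake and broken down by the monoamine oxidases MAOA and MAOB, enzymes of the outer mitochondrial membrane, among other enzymes.

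The genes examined are the dopamine receptors DRD1, DRD2, DRD3 and DRD5 and the oxidases MAOA and MAOB, taken as the rows carrying exactly these symbols, 6 of 17208 gene symbols. RNA-Seq of the NAcc was available for 24 adult male rhesus macaques that were unrelated to each other, each measured once. The 8 controls were offered water only and received a maltose dextrin solution to match calories, and the 16 drinkers were induced to drink ethanol by schedule-induced polydipsia and then had open access to ethanol and water for a year. All animals lived under the same operant conditions, and tissue was taken without a period of abstinence. Drinkers fell into categories by their own consumption, namely 8 LD* animals (labelled LD, which the study describes as low/binge drinkers), 4 HD and 4 VHD animals (heavy and very heavy drinkers, together HD*). Daily ethanol intake in g/kg averaged 1.58 ± 0.53 for LD*, 2.92 ± 0.16 for HD and 3.37 ± 0.29 for VHD (SD). The highest HD animal and the lowest VHD animal both drank 3.09 g/kg. Because drinking was voluntary, a difference between categories may precede the drinking or follow it, and these cannot be told apart.

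Values are taken as TPM, a share of all transcripts per transcript length, since they sum to nearly the same total in each animal and TPM is the unit the study names. The deposited table calls them normalized counts and no gene lengths are stated, so comparisons of levels between genes hold only if the values were divided by length. The number of reads behind them is unknown. Animals came from cohorts 4, 5, 7a and 7b. HD* animals and controls occurred together only in cohorts 5 and 7a, and cohort 4 held 2 LD* animals alone. Striatal neuron markers were high in nearly all animals, with a mean of 2497 TPM for PPP1R1B (DARPP-32, the phosphoprotein that relays dopamine signals) and 2638 TPM for PENK, the enkephalin precursor of the indirect pathway. The control labelled here as replicate 6, from cohort 7b, stood apart. Its 6 medium spiny neuron markers summed to 428 TPM against 1447 to 5140 TPM in the other 23 animals, and its direct and indirect pathway markers were also the lowest of all. Its oligodendrocyte markers (9138 TPM) and astrocyte markers (8022 TPM) were the highest of all, and its mean correlation with the other animals was the lowest (0.923, the others at least 0.953). Values without it are given beside the results that it moved most. In such bulk tissue, fewer cells of a type and less RNA per cell cannot be told apart.

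The 6 genes covered a wide range of levels. DRD2 had the highest mean over the 24 animals, 234 ± 107 TPM (SD), followed by MAOB with 232 ± 37.6, DRD1 with 145 ± 67.4, DRD3 with 50.9 ± 21.7, MAOA with 24.1 ± 5.84 and DRD5 with 4.28 ± 4.11 TPM. DRD2 and MAOB did not differ beyond their spread (permutation test of within-animal differences, 2-sided, p = 0.352). DRD2 was higher in 14 of 24 animals, but the mean log2(TPM + 1) difference tested was -0.16, with MAOB the higher. The other 4 neighbours in this order differed (permutation, 5 tests, adjusted p at most 0.000262). MAOB exceeded DRD1 in 23 of 24 animals and DRD3 exceeded MAOA in 21 of 24. DRD4, the remaining D2-like receptor, was at 0.504 ± 0.403 TPM (SD, n = 24) and was not tested. MAOB was thus much the more abundant oxidase transcript, above MAOA in every animal, with a log2 ratio of MAOA to MAOB between -3.82 and -2.67.

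The receptors varied among animals far more than the oxidases. DRD1 ranged from 8.14 to 274 TPM, and its SD on the log2(TPM + 1) scale, 1.03, was larger than that of 99.1% of the 13637 genes that averaged 1 TPM or more. DRD5 (SD 0.91), DRD2 (0.83) and DRD3 (0.81) were also above 97.2% or more of these genes. MAOA ranged from 10.9 to 34.2 TPM (SD 0.36) and MAOB from 151 to 295 TPM (SD 0.25), on either side of the median gene (SD 0.32).

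**Figure D1:**
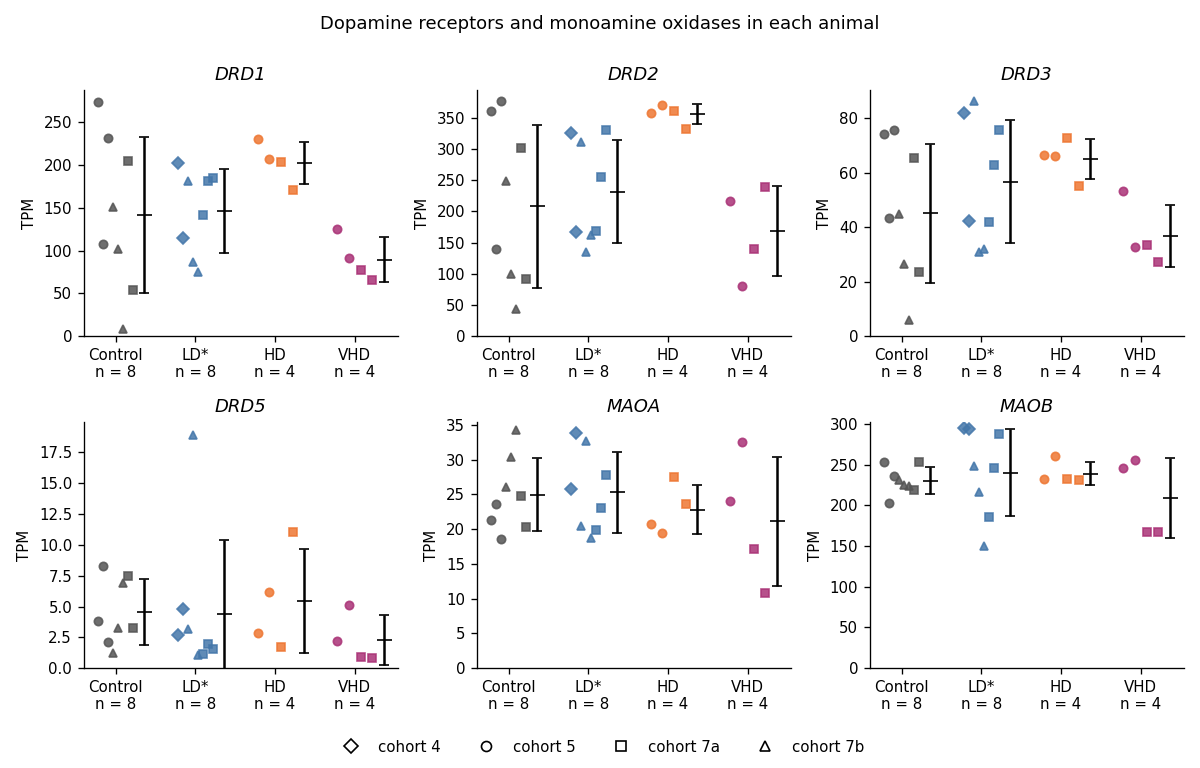
TPM of each gene (vertical axes, starting at 0) in each animal, by group; marker shapes give the cohort, and black bars the group mean ± SD, cut at 0 for DRD5 in LD*. DRD1, DRD2 and DRD3 did not overlap between HD and VHD, while controls and LD* animals spread over most of the range, and 1 LD* animal reached 18.9 TPM for DRD5.

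The main comparison of the study, HD* animals against controls, asked what chronic heavy drinking changes in the NAcc. None of the 6 genes passed, and neither did any of the 13637 genes tested (0%, limma on log2(TPM + 1), adjusted p under 0.05), with 775 genes (5.68%) at an unadjusted p under 0.05, 721 of them lower in HD*. None of the 6 genes was among these 775. The direction depended on scaling. With values rescaled by TMM (a trimmed mean of the ratios between libraries), 516 of 13627 genes had an unadjusted p under 0.05 (limma). Of these, 310 were higher and 206 lower in HD*, and the median log2 difference moved from -0.12 to 0.0010. A test on read counts could not be run here. The study itself tested read counts with DESeq2 and did report genes, both higher and lower in HD*, at an FDR under 0.05. The absence of calls thus holds for limma on TPM alone.

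DRD1 ran from 8.14 to 274 TPM in controls (median 129) and from 65.2 to 231 TPM in HD* animals (median 148). The lowest value was that of control replicate 6, and without it controls reached down to 53.4 TPM. The groups overlapped over nearly their whole range. The difference was 0.40 on the log2 scale (SE 0.49, 95% CI -0.60 to 1.40, limma, adjusted p = 0.764), and -0.10 without control replicate 6. Within cohorts it was -0.31 in cohort 5 and 0.13 in cohort 7a (exact permutation tests, p = 0.571 and 0.733).

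DRD2, which also serves as the autoreceptor of dopamine neurons, ran from 44.1 to 377 TPM in controls (median 194) and from 80.6 to 371 TPM in HD* (median 286). Both groups held animals at the low and the high end. The difference was 0.50 (SE 0.39, 95% CI -0.31 to 1.30, limma, adjusted p = 0.706), 0.22 without control replicate 6, -0.28 within cohort 5 and 0.59 within cohort 7a. DRD3, the receptor typical of the ventral striatum, ran from 6.07 to 75.8 TPM in controls (median 44.3) and from 27.3 to 72.7 TPM in HD* (median 54.2). HD* values lay inside the range of the controls. Its difference was 0.39 (SE 0.37, 95% CI -0.38 to 1.17, limma, adjusted p = 0.721), 0.051 without control replicate 6, -0.24 within cohort 5 and 0.15 within cohort 7a. DRD5 ran from 1.21 to 8.31 TPM in controls (median 3.55) and from 0.844 to 11.1 TPM in HD* (median 2.53), a difference of -0.33 (SE 0.43, limma, adjusted p = 0.775) that was -0.11 within cohort 5 and -0.88 within cohort 7a.

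MAOA, the form that prefers serotonin and noradrenaline as well as taking dopamine, ran from 18.6 to 34.2 TPM in controls (median 24.2) and from 10.9 to 32.6 TPM in HD* (median 22.2). Overlap was again broad, and only VHD animals fell below the lowest control. The difference was -0.21 (SE 0.17, 95% CI -0.57 to 0.15, limma, adjusted p = 0.712). It was 0.16 within cohort 5 and -0.25 within cohort 7a, and shrank to -0.081 without VHD replicate 4. MAOB, the form found mainly in glia and serotonin neurons, ran from 203 to 253 TPM in controls (median 228) and from 167 to 260 TPM in HD* (median 232). Its difference was -0.06 (SE 0.13, 95% CI -0.32 to 0.21, limma, adjusted p = 0.870), with 0.11 within cohort 5 and -0.26 within cohort 7a. The intervals reach 1.40 for DRD1 and 1.30 for DRD2 on the log2 scale, but do not go beyond 0.57 in size for MAOA and 0.32 for MAOB.

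LD* animals also overlapped with controls for every gene when cohorts were pooled. DRD1 ran from 74.6 to 203 TPM in LD* (median 162), DRD2 from 135 to 331 (median 211), DRD3 from 31.0 to 86.3 (median 52.6), DRD5 from 1.05 to 18.9 (median 2.33), MAOA from 18.7 to 33.8 (median 24.4) and MAOB from 151 to 295 TPM (median 247). Log2 differences from controls lay between -0.34 for DRD5 and 0.53 for DRD3 (limma, adjusted p = 0.99993 for all 6). Without control replicate 6 the difference of DRD3 fell to 0.18, that of DRD2 from 0.39 to 0.12 and that of DRD1 from 0.46 to -0.039. Without LD replicate 4 the difference of DRD5 was -0.67. Within cohort 7a, DRD5 was at 1.12 to 1.99 TPM in 3 LD* animals and at 3.26 and 7.51 TPM in 2 controls. These did not overlap (exact permutation test, p = 0.1, the smallest 3 against 2 allows, adjusted p = 0.84 over 42 tests within cohorts). The share of all genes without overlap in that split was not counted. In cohort 7b the groups overlapped. No gene passed among the 13637 (0%), with 387 (2.84%) at an unadjusted p under 0.05, none of them one of the 6. Between HD* and LD* the log2 differences lay between -0.22 for MAOA and 0.10 for DRD2 (limma, adjusted p from 0.937 to 0.997), with no gene called (0%) and 147 (1.08%) at an unadjusted p under 0.05. LD* and HD* were compared with the same controls.

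None of the other listed genes of the dopamine system was called either. Of 8 listed genes of dopamine synthesis, storage and uptake, 6 reached a mean of 1 TPM and none was called in HD* against controls (limma), with a median log2 difference of -0.07 against -0.12 over all genes. TH, the rate-limiting enzyme of dopamine synthesis, was at 3.30 ± 2.17 TPM over all animals and differed by -0.25 (SE 0.30), SPR, which completes the synthesis of its cofactor, by 0.19 (SE 0.25) and PTS, an earlier enzyme of that route, by -0.14 (SE 0.20). The dopamine transporter SLC6A3 was at 0.080 ± 0.046 TPM, below the filter. Of the 4 other breakdown enzymes listed, 3 were tested and none called. ALDH1A1 and ALDH2, aldehyde dehydrogenases, differed by -0.12 (SE 0.21) and -0.07 (SE 0.18). All 11 tested genes of receptor signalling stayed uncalled, with a median of 0.20. PPP1R1B differed by 0.47 (SE 0.42) and RGS9, which speeds the end of G protein signals, by 0.36 (SE 0.38). Among 3 regulators of MAO transcription, SP1 differed by -0.34 (SE 0.13, limma, unadjusted p = 0.0191, adjusted p = 0.706) and KLF11 by -0.28 (SE 0.15, adjusted p = 0.706), and neither passed.

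The study also compared VHD with HD animals inside the HD* group, and this was the comparison in which receptors differed. DRD1, DRD2 and DRD3 were lower in VHD than in HD animals, DRD5 and both oxidases did not pass. In all, 1997 of 13637 genes were called (14.6%, limma, adjusted p under 0.05), 1556 of them lower in VHD (11.4%) and 441 higher (3.23%). The 3 lower receptors are to be read against that background.

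DRD1 was at 231, 207, 203 and 171 TPM in the 4 HD animals and at 125, 91.2, 76.8 and 65.2 TPM in the 4 VHD animals. Every HD animal was above every VHD animal. The mean in VHD was 0.441 of that in HD, a log2 difference of -1.20 (SE 0.19, 95% CI -1.61 to -0.80, limma, adjusted p = 0.00489). DRD2 was at 358, 371, 361 and 333 TPM in HD and at 216, 80.6, 140 and 239 TPM in VHD. The HD animals lay close together, the VHD animals were spread out, and the groups again did not overlap. The difference was -1.19 (SE 0.27, 95% CI -1.78 to -0.59, limma, adjusted p = 0.0166). DRD3 was at 66.5, 66.0, 72.7 and 55.0 TPM in HD and at 53.4, 32.9, 33.3 and 27.3 TPM in VHD. Here the highest VHD animal came close to the lowest HD animal. The difference was -0.85 (SE 0.20, 95% CI -1.27 to -0.42, limma, adjusted p = 0.0174). For each of these 3 genes an exact permutation test over the animals gave p = 0.0286, the smallest that 4 against 4 allows. The share of all genes without overlap between HD and VHD animals was not counted. In the same comparison 4457 genes had an unadjusted p under 0.05 (limma), so a lack of overlap may not be particular to these receptors.

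Both cohorts that held HD and VHD animals showed these 3 differences in the same direction. DRD1 was lower in VHD by -1.02 in cohort 5 and -1.38 in cohort 7a on the log2 scale, DRD2 by -1.46 and -0.92, and DRD3 by -0.65 and -1.04, each without overlap of the 2 HD and 2 VHD animals of a cohort. With 2 against 2 the exact permutation test cannot go below p = 0.333. MAOA did not overlap in either cohort, though with opposite signs, and DRD5 and MAOB did not overlap in cohort 7a. The share of all genes without overlap within a cohort was not counted.

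DRD5 was at 2.83, 6.18, 1.74 and 11.1 TPM in HD and at 2.23, 5.12, 0.867 and 0.844 TPM in VHD. The groups overlapped, and the difference of -0.94 (SE 0.47, 95% CI -1.97 to 0.10) did not pass (limma, adjusted p = 0.192). MAOA was at 20.7, 19.5, 27.4 and 23.7 TPM in HD and at 23.99, 32.6, 17.1 and 10.9 TPM in VHD, with VHD animals both above and below all HD animals. Its difference was -0.20 (SE 0.28, limma, adjusted p = 0.652), made up of 0.46 in cohort 5 and -0.86 in cohort 7a. MAOB was at 232, 260, 232 and 231 TPM in HD and at 246, 256, 167 and 167 TPM in VHD. Both low VHD values came from cohort 7a, and the difference of -0.22 (SE 0.16) did not pass (limma, adjusted p = 0.366).

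**Figure D2:**
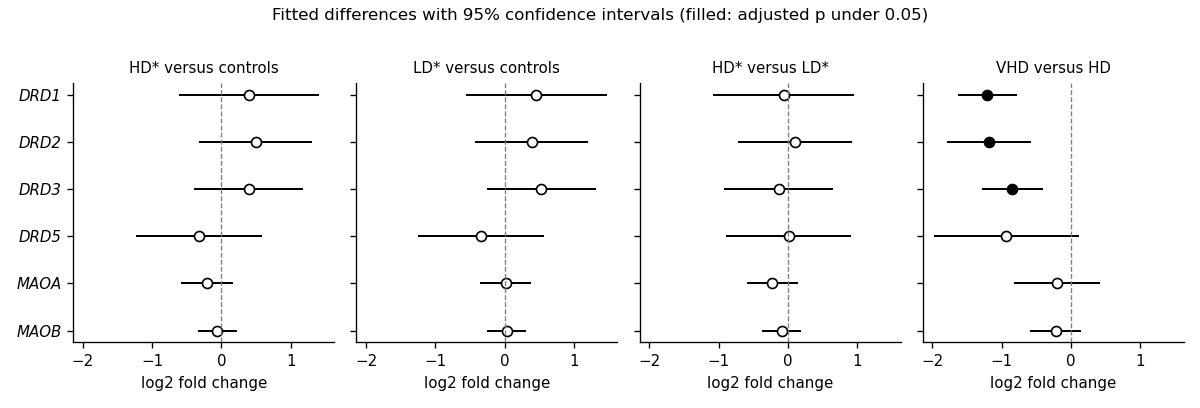
Fitted log2 fold change of each gene (points) with its 95% confidence interval (lines) in 4 comparisons; filled points passed at an adjusted p under 0.05. Only DRD1 (-1.20), DRD2 (-1.19) and DRD3 (-0.85) in VHD versus HD are filled, and all intervals of the other comparisons include 0.

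Set against the controls, neither HD nor VHD animals passed for any of the 3 receptors, and the size of the estimates rested on control replicate 6. In a model with 4 groups, added after seeing the data, HD animals differed from controls by 1.00 for DRD1 (SE 0.57), 1.09 for DRD2 (SE 0.44) and 0.82 for DRD3 (SE 0.44), none of which passed (limma, adjusted p = 0.583, 0.582 and 0.582). VHD animals differed from controls by -0.20, -0.10 and -0.03 (limma, adjusted p = 0.832, 0.896 and 0.972). Without control replicate 6, HD animals differed from controls by 0.51, 0.82 and 0.47 (limma, adjusted p = 0.730 for each) and VHD animals by -0.70, -0.37 and -0.37 (adjusted p = 0.171, 0.499 and 0.419). No gene was called in any of these (0%). With the spread of all 24 animals in that model, VHD against HD no longer passed for DRD1 (adjusted p = 0.193), DRD2 (0.106) or DRD3 (0.243) and no gene was called (limma, 4608 genes at an unadjusted p under 0.05). Without control replicate 6 in the same model 1465 genes were called (10.7%), with DRD1 at an adjusted p of 0.0481, DRD2 at 0.0586 and DRD3 at 0.0942 (limma).

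Markers of medium spiny neurons were also lower in VHD than in HD animals. All 6 listed markers were called lower, with a median log2 difference of -1.07 against -0.17 over all genes, among them PPP1R1B (-1.03, SE 0.23, limma, adjusted p = 0.0152) and BCL11B, a transcription factor of these neurons (-1.11, SE 0.17, adjusted p = 0.00493). Their summed level was 4106 to 4781 TPM in HD and 1447 to 3122 TPM in VHD animals, with no marker at 0 in any animal. All 5 indirect pathway markers were called lower, such as the adenosine receptor ADORA2A (-1.20, SE 0.21) and PENK (-1.04, SE 0.21), and their sum was 3861 to 5225 TPM in HD and 1332 to 2614 TPM in VHD. Of 5 direct pathway markers 2 were called lower, PDYN, the dynorphin precursor (-0.80, SE 0.20), and the muscarinic receptor CHRM4 (-1.27, SE 0.18), while TAC1, the substance P precursor, gave -0.06 (SE 0.17) with sums of 1174 to 1506 TPM in HD and 897 to 1282 TPM in VHD.

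Receptor signalling genes followed, with 7 of 11 called lower (median -0.89), including the phosphodiesterase PDE1B (-1.41, SE 0.19) and RGS9 (-0.98, SE 0.17), whereas GNG7 gave 0.18 (SE 0.27). PPP1R1B, RGS9, ADCY5 and PDE10A stand on this list and on that of medium spiny neuron markers. Markers of other cells differed in either direction. Of 6 microglia markers 3 were called higher in VHD, the complement gene C1QB (0.64, SE 0.19) and, named after their values were seen, C1QA (0.79, SE 0.16) and AIF1 (1.11, SE 0.22), with sums of 273 to 359 TPM in HD and 360 to 630 TPM in VHD. Of 6 astrocyte markers 1 was called higher, GFAP (1.39, SE 0.30, named after its values were seen), with sums of 1769 to 3253 TPM in HD and 3917 to 6570 TPM in VHD. Of 6 oligodendrocyte markers 1 was called higher, MBP (0.84, SE 0.26, also named afterwards), with sums of 2323 to 3951 TPM in HD and 2271 to 4813 TPM in VHD. Endothelial markers summed to 174 to 215 TPM in HD and 152 to 182 TPM in VHD. Their score was lower in VHD by -0.32 without overlap (exact permutation test, p = 0.0286). Astrocyte and microglia scores were higher in VHD by 0.48 and 0.53, but overlapped with HD (exact permutation test, p = 0.0857 for each). The direct pathway score was lower by -0.46 and overlapped (exact permutation test, p = 0.0571). Oligodendrocyte and cortical scores overlapped as well (exact permutation tests, p = 0.971 and 0.371). The indirect pathway score was lower by -1.20 without overlap (exact permutation test, p = 0.0286). Cortical neuron markers summed to 1.42 to 225 TPM in HD and 2.32 to 21.3 TPM in VHD. No single endothelial or cortical marker and no gene of dopamine synthesis or of the other breakdown enzymes was called. TH gave -0.09 (SE 0.33).

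The medium spiny neuron score, the mean centred log2(TPM + 1) of the 6 markers, was lower by -1.17 in VHD and did not overlap with HD (exact permutation test, p = 0.0286). With this score as a covariate, added after seeing the data, no gene was called (limma, 1258 at an unadjusted p under 0.05), and the differences became -0.63 for DRD1, 0.94 for DRD2 and -0.10 for DRD3 (SE 0.52 to 0.56, adjusted p = 0.552, 0.497 and 0.925). Since score and category did not overlap in these 8 animals, they cannot be told apart.

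Over all 24 animals the same 3 receptors varied together. DRD1 and DRD3 had a Pearson r of 0.96 (Spearman rho 0.90), DRD2 and DRD3 of 0.90 (rho 0.86) and DRD1 and DRD2 of 0.87 (rho 0.90), each with a permutation p of 1e-05, the smallest that 100000 permutations can give, and an adjusted p of 5e-05 over 15 pairs. Leaving out the 2 animals farthest from the median of the first gene gave 0.92, 0.88 and 0.80. Within cohorts 5, 7a and 7b, r was 0.96, 0.97 and 0.96 for DRD1 and DRD3, 0.99, 0.84 and 0.97 for DRD2 and DRD3, and 0.94, 0.81 and 0.91 for DRD1 and DRD2.

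The same receptors followed the medium spiny neuron score. Pearson r with the score was 0.97 for DRD1 (rho 0.94), 0.95 for DRD2 (rho 0.97) and 0.95 for DRD3 (rho 0.88), with permutation p of 1e-05 and adjusted p of 4.5e-05 over 18 relations. Leaving out the 2 farthest animals gave 0.94, 0.95 and 0.89, and the lowest r within a cohort was 0.93. Only 0.147% of the tested genes had a higher r with the score than DRD1, and the median gene had 0.06. With the astrocyte score all 3 were negative, most for DRD2 (r -0.82, rho -0.82, permutation p of 1e-05, and -0.97, -0.84 and -0.87 within cohorts 5, 7a and 7b). With the oligodendrocyte score r was -0.58 for DRD1, -0.51 for DRD2 and -0.61 for DRD3 (permutation, adjusted p = 0.0118, 0.0202 and 0.00654), but between 0.09 and 0.14 within cohort 7a, without the 2 farthest animals -0.33, -0.21 and -0.43, and without control replicate 6 -0.26, -0.29 and -0.36.

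**Figure D3:**
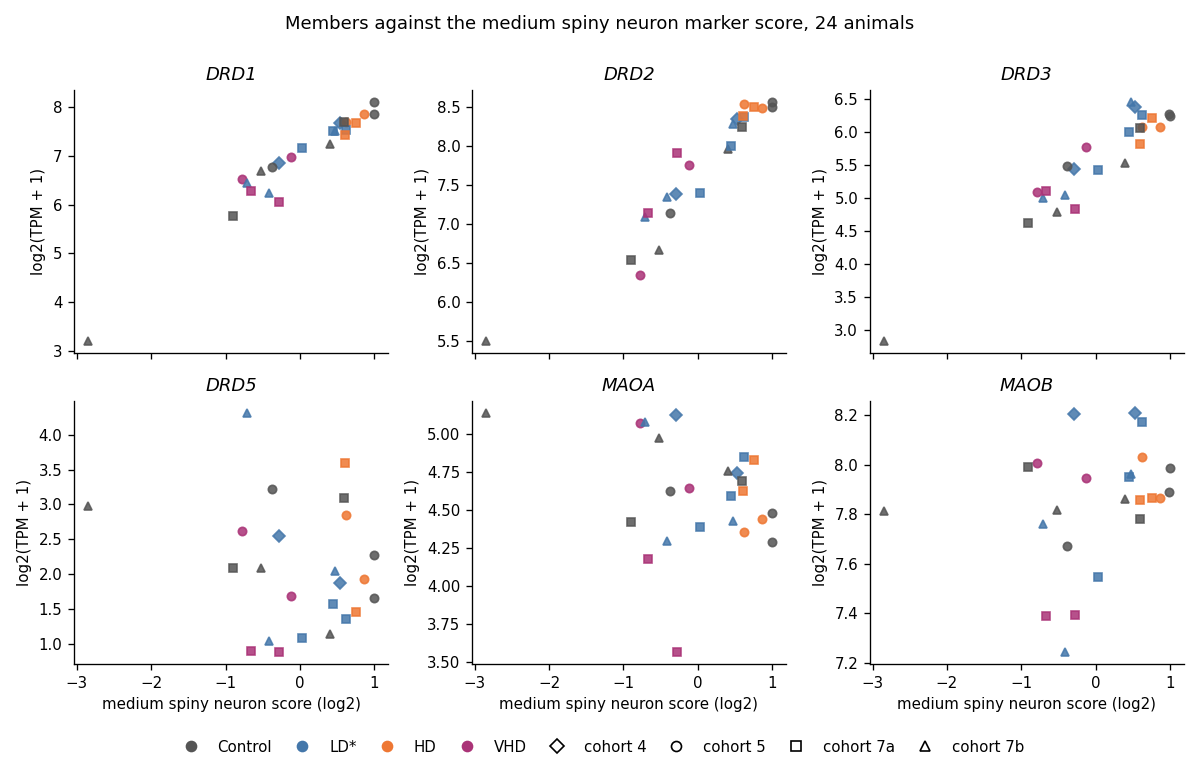
Level of each gene, log2(TPM + 1), against the medium spiny neuron marker score (mean centred log2 value of 6 markers) in 24 animals; colours give the group and shapes the cohort. DRD1, DRD2 and DRD3 follow the score (r from 0.95 to 0.97), DRD5, MAOA and MAOB show none over all animals (r from -0.28 to 0.27), and control replicate 6 is the point at -2.85.

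DRD5, MAOA and MAOB showed no such relation with the score over all animals (r -0.20, -0.28 and 0.27, rho -0.11, -0.23 and 0.33, permutation, adjusted p from 0.224 to 0.369). Within cohorts 5, 7a and 7b, r was -0.88, 0.65 and -0.63 for MAOA, -0.46, 0.38 and -0.46 for DRD5, and 0.17, 0.45 and 0.07 for MAOB, so the pooled values join relations of opposite sign for MAOA and DRD5. DRD5 and MAOA had an r of 0.52 (rho 0.49, permutation p = 0.00891, adjusted p = 0.0267), with 0.29, 0.45 and 0.71 within cohorts 5, 7a and 7b, and 0.50 without the 2 farthest animals. MAOA and MAOB had an r of 0.54 (rho 0.29, permutation p = 0.00675 for r and 0.164 for rho). Within cohorts that r was 0.10, 0.79 and 0.46. With values rescaled by TMM (a trimmed mean of the ratios between libraries) it was 0.06, so the relation did not hold in cohort 5 or under that scaling. DRD3 and MAOB passed by rank alone (rho 0.50, r 0.37, permutation, adjusted p = 0.0484 and 0.168). Their r was 0.15, 0.54 and 0.12 within cohorts 5, 7a and 7b, and 0.51 without control replicate 6. MAOB and the oligodendrocyte score passed by rank alone too (rho -0.49, r -0.40, permutation, adjusted p = 0.0414 and 0.0915). Their r was 0.32, -0.14 and -0.43 within cohorts, and -0.47 without control replicate 6.

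The relation of MAOA to the 3 receptors changed sign between cohorts. Over all animals r was -0.16 with DRD1, -0.37 with DRD2 and -0.18 with DRD3 (rho -0.10, -0.31 and -0.13, permutation, adjusted p = 0.512, 0.168 and 0.490). In cohort 5 it was -0.83, -0.94 and -0.93, in cohort 7b -0.52, -0.70 and -0.66, and in cohort 7a 0.76, 0.41 and 0.79. The cohorts held 7, 6 and 9 animals and the difference between them was not tested.

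**Figure D4:**
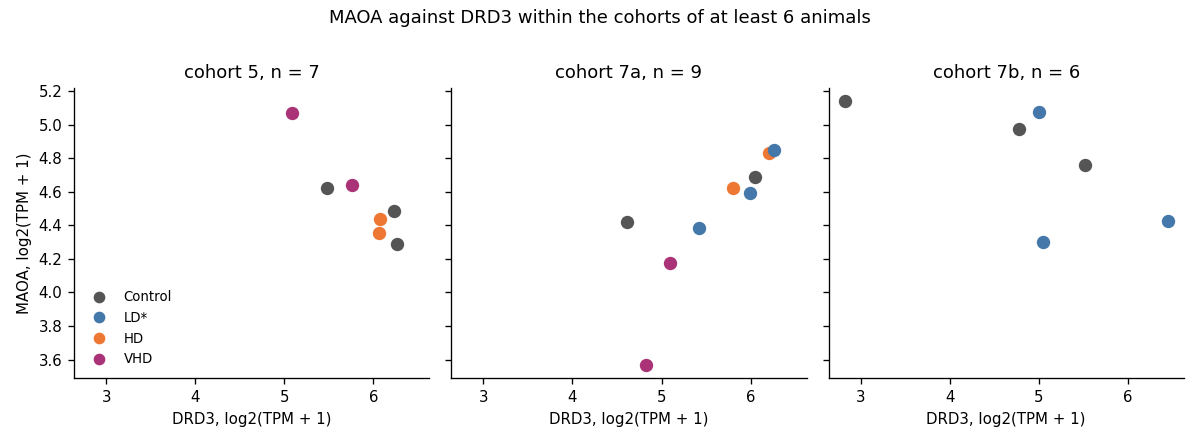
MAOA against DRD3, both as log2(TPM + 1), within the 3 cohorts of at least 6 animals; each point is an animal and its colour the group. MAOA falls as DRD3 rises in cohorts 5 (r -0.93) and 7b (r -0.66) and rises with it in cohort 7a (r 0.79), where the 2 VHD animals have the lowest MAOA levels.

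The balance of DRD1 to DRD2, a ratio within each animal that does not depend on scaling except through the pseudocount, did not differ between groups beyond its spread. Controls averaged -0.73 ± 0.69 on the log2 scale, LD* animals -0.66 ± 0.26 and HD* animals -0.82 ± 0.55 (SD, n = 8 each). DRD2 was the higher of the pair in all but 2 animals, the exceptions being a control (0.02) and VHD replicate 2 (0.18). HD* differed from controls by -0.10 (exact permutation test, 2-sided, p = 0.756, adjusted p = 0.943 over 8 tests), by -0.03 within cohort 5 and by -0.46 within cohort 7a. HD and VHD animals had close means, -0.81 ± 0.13 and -0.83 ± 0.83 (SD, n = 4 each), with a wide spread in VHD, where VHD replicate 4 was at -1.86. For MAOA to MAOB, controls averaged -3.18 ± 0.34, LD* animals -3.20 ± 0.29 and HD* animals -3.33 ± 0.30 (SD, n = 8 each), and HD* differed from controls by -0.15 (exact permutation test, p = 0.358, adjusted p = 0.943), by 0.05 within cohort 5 and by 0.00 within cohort 7a.

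**Figure D5:**
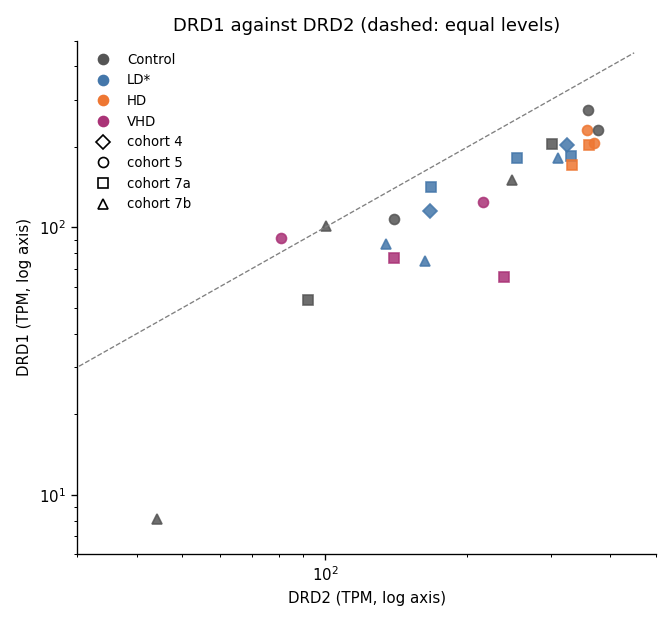
DRD1 against DRD2 in 24 animals, both in TPM on log axes; colours give the group, shapes the cohort, and the dashed line equal levels. Points lie below the line in all but 2 animals, HD animals sit together at 333 to 371 TPM of DRD2, and control replicate 6 is at the lower left.

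None of the 6 genes passed for intake. Across the 16 drinkers, with LD* and HD* as a term, the slope per g/kg of daily ethanol was -0.45 for DRD1 (SE 0.33), -0.35 for DRD2 (SE 0.36), -0.35 for DRD3 (SE 0.31), -0.53 for DRD5 (SE 0.55), -0.27 for MAOA (SE 0.22) and -0.32 for MAOB (SE 0.17), on the log2 scale. Adjusted p ran from 0.498 to 0.654 (limma), and no gene was called (0%, with 1107, or 8.12%, at an unadjusted p under 0.05). Without LD replicate 2, the animal with the lowest intake (0.47 g/kg), the slopes of DRD1, DRD2 and DRD3 were -1.20, -1.12 and -1.05, and did not pass (limma, adjusted p = 0.294 for each). Of 12 relations within LD* and within HD*, the strongest by rank were MAOB (rho -0.83, r -0.67) and DRD5 (rho -0.79, r -0.28) in LD* and DRD3 (rho -0.78, r -0.42) in HD*, all with an adjusted p of 0.115 by exact permutation of the ranks, and at least 0.666 for r. Without the 2 animals of most distant intake, r was -0.62, -0.30 and -0.84. In LD* those 2 animals (0.47 and 1.24 g/kg) were the only ones of cohort 4. They also had the highest MAOB of all 24 animals (294 and 295 TPM), so low intake and cohort cannot be told apart there. The study describes 2 LD* animals as older than the rest and found age not to be a significant covariate. The labels used here do not give age.

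Cohort did not pass either. The F test of 3 cohort terms gave adjusted p of 0.540 for DRD1, DRD3 and MAOB and from 0.636 to 0.827 for the others (limma, no gene called, 0%, 1140 or 8.36% at an unadjusted p under 0.05). The effect of HD* in cohort 7a against that in cohort 5 gave adjusted p of at least 0.99985 for all 6 (limma, 0% called, 294 or 2.16% at an unadjusted p under 0.05).

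The genes whose levels were most like each member over the 24 animals were found by Pearson r on log2(TPM + 1) among the tested genes. DRD1 was most like GPR52, LMO7 and SIPA1L1 (r 0.97 each), DRD2 like RASD2, CYP46A1 and NGEF (r 0.98 each), and DRD3 like RARB, PDYN and SERTAD4 (r 0.97 each). GPR52 is a listed indirect pathway marker and PDYN a direct one. With the direct and indirect pathway scores, r was 0.94 and 0.97 for DRD1, 0.80 and 0.94 for DRD2, and 0.92 and 0.97 for DRD3. For DRD1 these were 0.86 and 0.95 without control replicate 6. DRD1 thus did not follow direct pathway markers more closely than indirect ones. These relations were added after seeing the data and were not tested. DRD1 had 185 genes at an r of 0.9 or more, DRD2 137 and DRD3 186, that is 1.36%, 1.00% and 1.36% of all. Without control replicate 6, GPR52 fell to rank 78 for DRD1 and SIPA1L1 to rank 106, while RASD2 stayed first for DRD2. The oxidases and DRD5 had few such genes. DRD5 was most like NXPH3 (r 0.93) and FAM102B (0.91), MAOA like TH1L (0.93), PXK (0.90) and ZNF496 (0.89), and MAOB like CS, the citrate synthase (0.88), PTPN9 (0.88) and SOAT1 (0.87).

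DRD5 followed genes of cortical excitatory neurons. Its r with the score of the 4 cortical markers was 0.77 (rho 0.62, 24 animals). The relation was added after seeing the data and is given as a description. Within cohorts 5, 7a and 7b, r was 0.79, 0.81 and 0.87, and rho 0.57, 0.42 and 0.60. The summed level of these markers spanned 1.42 to 834 TPM over the animals. The highest DRD5 values were those of LD replicate 4 (18.9 TPM), HD replicate 4 (11.1 TPM), control replicate 2 (8.31 TPM) and control replicate 7 (7.51 TPM), whose cortical scores were 4.23, 2.69, 3.09 and 2.15. Next came control replicate 6 (6.90 TPM), HD replicate 2 (6.18 TPM) and VHD replicate 2 (5.12 TPM), with scores of -0.55, 1.56 and -0.94. The part of these markers in the DRD5 values was not tested.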

How the data were processed

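The data were RNA-Seq of the NAcc of 24 rhesus macaques. The authors prepared polyA-selected libraries, used STAR 2.5.2b with the MacaM assembly, keeping unique alignments, and counted reads on genes with HTSeq 0.6.1p1. The sources used here differ on whether libraries were stranded and paired-end. The deposited values, called normalized counts there, are taken as TPM made by the authors, since columns sum to between 999998 and 1000000, and the gene lengths used are not stated. The depth of a sample is thus unknown and no count model could be fitted. The authors tested their counts with DESeq2, whose results were not used here. Values were transformed to log2(TPM + 1), which understates changes of low genes. Genes averaging 1 TPM or more, 13637 in all, were tested with limma 3.58.1 (trend) in R 4.3.3 with Benjamini-Hochberg adjustment over all of them, at 0.05. A model of 3 groups gave the comparisons with controls, and VHD against HD was fitted to the 8 HD* animals. Other tests were exact permutations or 100000 permutations (Python 3.11.15, scipy 1.17.1). The fit was tested on simulated data. Each library came from 1 animal. Replicate numbers follow accession order and only name animals. The members and gene lists were chosen with earlier results of these data known. Named were the members, at most 4 genes of a list by the smallest p in HD* against controls plus TH and PPP1R1B, and the 3 genes most like each member. A few genes that this rule names are not reported here. Alternatives were pseudocounts of 0.1 and 8, a mean of at least 10 TPM or no filter, trimmed mean of M-values (TMM) rescaling, array weights, covariates, cohorts 5 and 7a alone and each animal left out. Sequences were not analysed here.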

Additional observations from a re-analysis of the deposited data

Results flagged for a closer look

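Of 40 sets of 4 or 8 animals checked for a value far from the rest, 3 held 1, and chance alone gives about 1 in 20. Control replicate 6 had the lowest log2 ratio of DRD1 to DRD2 among controls, -2.30 against -0.77 to 0.02 in the others, and it is the animal with the lowest striatal neuron markers. LD replicate 4 had the highest DRD5 in LD*, 18.9 TPM against 1.05 to 4.83 TPM. HD replicate 2 had the highest MAOB in HD, 260 TPM against 231 to 232 TPM. MAOA moved in opposite directions between VHD and HD animals in cohorts 5 and 7a, higher in VHD in cohort 5 (0.46) and lower in cohort 7a (-0.86), without overlap in either, so that the 2 differences lie -1.32 apart on the log2 scale. That difference between cohorts was not tested, since each held 2 animals per category.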

How the results depend on the processing

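No paired analysis was possible because the labels give no replicate numbers shared between groups. DRD5 is below a mean of 10 TPM and has no value under that filter. Depth is unknown, so counting error, which weighs most on DRD5, cannot be given. In HD* against controls, LD* against controls, HD* against LD* and the cohort test, no gene was called under any alternative run. VHD against HD gave 7613 calls with array weights, 0 with the medium spiny neuron score as a covariate and 0 with 4 groups in 1 model, and 476 (without VHD replicate 3) to 4651 (without VHD replicate 2) with 1 animal left out. Leaving out 1 animal gave 0 to 1 calls for intake and 0 to 14 for the HD* effect between cohorts. TMM rescaling moved the median gene in VHD against HD from -0.17 to -0.02 and the calls from 441 higher and 1556 lower to 1066 and 1583, with DRD1 at -1.03 (limma, adjusted p = 0.00884), DRD2 at -1.01 (0.0861) and DRD3 at -0.67 (0.0348). DRD2 was also lost without a filter (limma, adjusted p = 0.0595). Leaving out 1 animal kept DRD1 called in all 8 fits (adjusted p from 0.00137 to 0.0263) and lost DRD2 and DRD3 in 3 fits each (adjusted p up to 0.0665 and 0.0667, without VHD replicate 3). Array weights called DRD5 (-1.53, limma, adjusted p = 0.00524) and MAOB (-0.47, 0.00255) as well. That setting called 7613 of all 13637 genes tested, so these calls are not particular to the 2 genes.

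These signs turned, in differences that did not pass unless said otherwise. Array weights gave 0.18 for DRD5 and 0.053 for MAOB in HD* against controls, 0.11 for DRD1 in HD* against LD* and 0.0012 for MAOA in the effect between cohorts. TMM gave 0.078 for MAOB in HD* against controls, 0.028 for DRD1 in HD* against LD* and an r of -0.098 for DRD5 with MAOB. Cohort as a covariate gave -0.032 for DRD1 in HD* against controls, -0.069 for MAOA and -0.013 for MAOB in LD* against controls, and -0.32 for DRD2 in HD* against LD*. Without cohort 4, LD* against controls gave -0.068 for MAOA and -0.079 for MAOB. In cohorts 5 and 7a alone, HD* against controls gave -0.12 for DRD1, -0.073 for DRD3 and 0.028 for the MAOA to MAOB balance. The oligodendrocyte score gave -0.052 for MAOB in LD* against controls and 0.094 for DRD1 and -0.072 for DRD5 in HD* against LD*, where a pseudocount of 8 gave -0.013 for DRD5. The medium spiny neuron score gave 0.94 for DRD2 in VHD against HD (called without it) and 0.021 in its intake slope. Against controls, HD animals alone gave 0.14 for DRD5 and 0.054 for MAOB (0.23 and 0.048 without control replicate 6), and VHD animals alone -0.20 for DRD1, -0.099 for DRD2 and -0.029 for DRD3 (-0.70, -0.37 and -0.37 without it). Within cohort 7a, r with the oligodendrocyte score was 0.14 for DRD1, 0.11 for DRD2 and 0.086 for DRD3 (called over all animals). Without the 2 farthest animals r was 0.088 for DRD1 with DRD5, 0.12 for DRD1 and 0.036 for DRD3 with MAOA, 0.015 for DRD3 with DRD5, -0.032 for MAOA with the oligodendrocyte score and -0.28 for MAOB with intake in HD*. With 1 animal left out, HD* against controls ranged from -0.097 to 0.60 for DRD1 and -0.090 to 0.00080 for MAOB, LD* against controls from -0.039 to 0.66 for DRD1, -0.048 to 0.081 for MAOA and -0.017 to 0.12 for MAOB, and HD* against LD* from -0.18 to 0.087 for DRD1 and -0.22 to 0.34 for DRD5. VHD against HD ranged from -0.43 to 0.068 for MAOA, the effect between cohorts from -0.52 to 1.40 for DRD1 and -0.33 to 1.11 for DRD3, and the DRD1 to DRD2 balance from -0.32 to 0.051. The cause was not tested.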
